A study of Mus musculus with 20 samples.

Results

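Nfe2l2, which encodes the transcription factor NRF2, its inhibitor Keap1 and 8 antioxidant genes that NRF2 is known to activate (Nqo1, Gclc, Gclm, Hmox1, Txnrd1, Srxn1, Slc7a11 and Gsr) were described in mouse liver. They were taken by gene symbol from the RNA-seq tables of each sex and joined by Ensembl identifier. All 10 genes had a row in the male table of 56884 genes, and 9 of them in the female table of 18149 genes. Slc7a11 was the gene without a female row. The livers came from mice aged 11 to 14 weeks, and each sex had 3 samples labelled WT and 3 labelled Midn-T. The WT samples carry the genotype label Midn XTR, a gene-trap cassette in the second intron of Midn that leaves the gene expressed. In Midn-T samples, labelled Midn TR, Albumin-Cre, the Tg(Alb-cre)21Mgn transgene, had inverted the cassette, so that transcription of Midn stops early and a GFP reporter is expressed. The cassette was inserted in C57BL/6J embryos, no further treatment is named in the sources used here, and Albumin-Cre is driven by a hepatocyte promoter. Whole liver also holds other cells, in which the cassette was not meant to be inverted. Whether the WT mice carried the Cre transgene is not given in the sources used here.

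NRF2 is a transcription factor of the antioxidant and electrophile response. In unstressed cells KEAP1 holds it in the cytoplasm and presents it to a cullin ubiquitin ligase for degradation, and when KEAP1 cysteines are modified NRF2 accumulates, pairs with a small MAF protein and binds the antioxidant response element (ARE). In liver its targets make and recycle glutathione, keep thioredoxin reduced, break down heme and reduce quinones. NRF2 is controlled mostly at the level of protein stability, which RNA-seq does not measure.

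The values described are the authors' mean normalised counts, 1 per gene and sex, taken over the 6 samples of that sex with both genotypes together. They carry no error, library depths cannot be read from them, and no difference below was tested. The comparison of Midn-T with WT is not reported here, because the columns that hold it are the authors' own fold changes and p-values. The means summed to 3.03e+07 in males and 3.08e+07 in females. All 4 Y-linked genes examined had a male row and none a female row, and Xist had a mean of 14.0 in males and 72478 in females. All 5 male-biased liver genes compared were past 2-fold higher in males, and both female-biased genes compared were past 2-fold higher in females. Midn itself had a mean of 1672 in males and 1357 in females over both genotypes. All 6 hepatocyte markers were among the abundant genes of both tables, with Alb, Apoa1, Ttr, Cps1, Serpina1c and Tat each at a mean of at least 39021.

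The 2 subunits of glutamate-cysteine ligase had the highest means of the 10 genes in both sexes, and Slc7a11 had the lowest mean in males. Between the sexes none of the 9 genes listed in both tables differed by as much as 2-fold. The share of all genes compared past 2-fold was 1.86% towards females and 1.46% towards males. Hmox1, Gclc and Gsr had the lowest female-to-male ratios and Nqo1 the highest. The means of the 10 genes added up to 30331 in males, and those of the 9 listed genes to 24507, or 0.0797% of the summed means, in females.

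**Figure D1:**
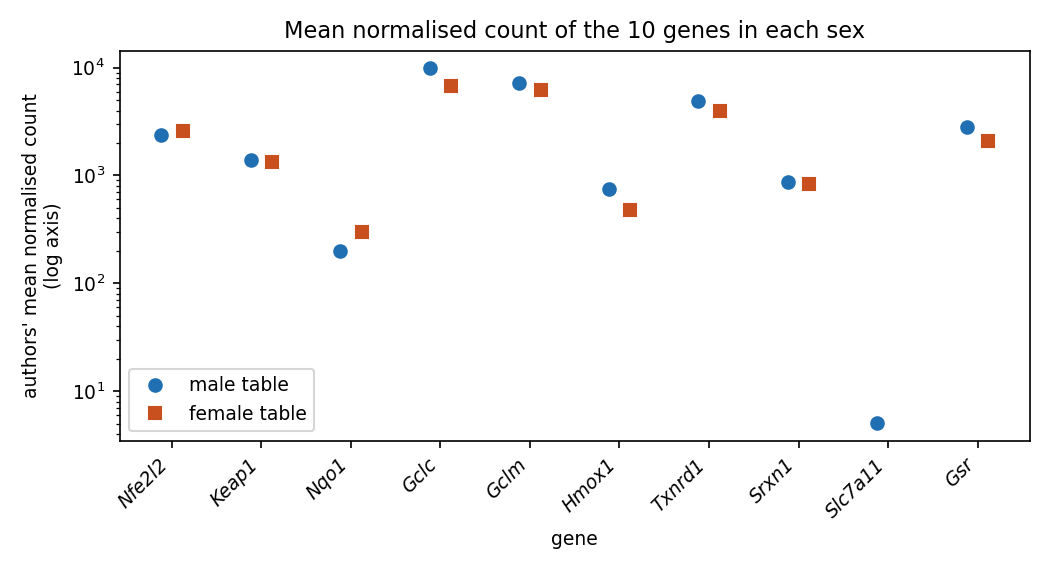
Authors' mean normalised count of each of the 10 genes on a log axis, with circles for the male table and squares for the female table, each point being 1 mean over 6 samples with no error available. Gclc and Gclm stand highest, Nqo1 is the lowest gene with both values, and Slc7a11 has a male point only, at 5.08.

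NRF2 binds the ARE, whose core TGACNNNGC was searched on both strands of the promoter, from 250 bases before to 50 after the annotated start of the canonical transcript. The core was found in 3 of the 10 promoters, those of Gclm, Txnrd1 and Srxn1, and in 12.5% of all 21770 protein-coding promoters of the same length. The matches are shown because they are the only ones in this window. Distances are from the start of the canonical transcript, which for Txnrd1 and Gsr lies inside the annotated gene span. They are given 5′ to 3′ on the strand of the gene, in GRCm39, with the match in capitals. All 3 lie on the opposite strand and so read as the reverse complement of the core.
Gclm, chr3:122039062-122039090, plus strand: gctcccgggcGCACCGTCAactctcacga
Txnrd1, chr10:82694938-82694966, plus strand: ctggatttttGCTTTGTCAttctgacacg
Srxn1, chr2:151947462-151947490, plus strand: gcagtgggcaGCTAGGTCAgagtgagaca
The first base of the match lies 54 bases before the start site in Gclm and 65 bases before it in Txnrd1. In Srxn1 it lies 28 bases after the start site, within the first exon.

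With 1000 bases before the start site in place of 250, a window chosen after the data were seen, the core was found in 6 of the 10 promoters and in 30.4% of all promoters. Nfe2l2, Slc7a11 and Gsr were added, and Txnrd1 gained a second match. The matches of Nfe2l2 and Gsr on the strand of the gene are shown as the forms that read TGAC directly.
Nfe2l2, chr2:75535229-75535257, minus strand: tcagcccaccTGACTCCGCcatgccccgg
Gsr, chr8:34142512-34142540, plus strand: acgtttcttaTGACTTAGCagtatttaat
They begin 262 and 744 bases before the canonical start sites. The Gsr match lies before the annotated 5′ end of the gene, at 34142551, and closer to that end than to the canonical start. The form TGACTCAGC, whose first 7 letters are also the AP-1 site, was found in none of the 10 promoters at either length and in 87 of all promoters at the shorter one. Keap1, Nqo1, Gclc and Hmox1 had no match to TGACNNNGC in the longer window, which says only that these letters are not there. The shorter core TGANNNNGC was found in that window in 9 of the 10 promoters, all but that of Gclc, and in 79.9% of all promoters. A match of such letters is not a measured binding site.

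**Figure D2:**
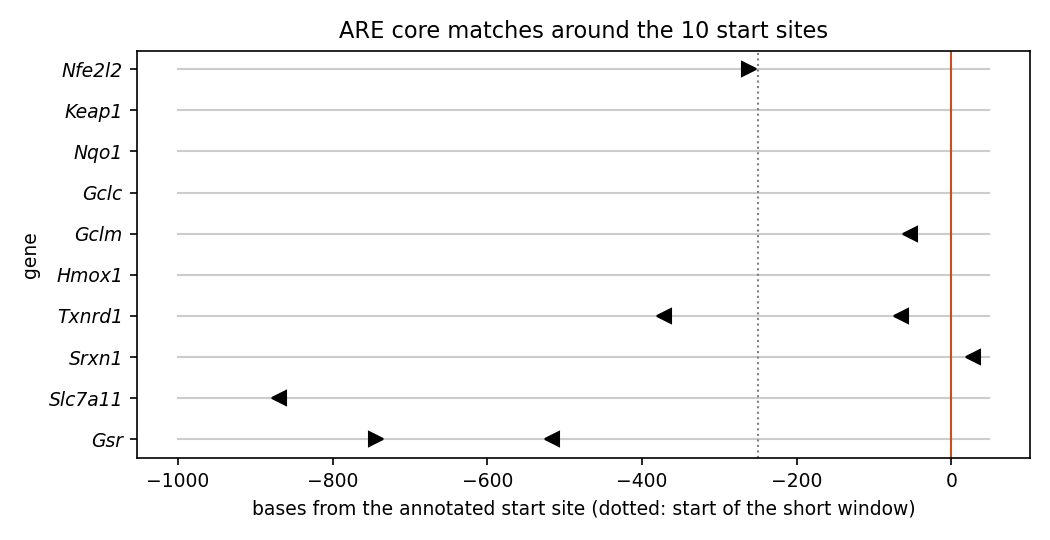
Matches to the ARE core around the canonical start site of each of the 10 genes. Distance in bases is on the horizontal axis, with the start site as the vertical line and the start of the shorter window dotted. Triangles pointing right are matches on the strand of the gene and those pointing left on the opposite strand, and Txnrd1 and Gsr each hold 2 while Keap1, Nqo1, Gclc and Hmox1 hold none.

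The regulators came first in the pathway and were close to equal in the sexes. Nfe2l2 (ENSMUSG00000015839, chromosome 2, 75504739 to 75534985, minus strand) had a mean of 2394 in males and 2581 in females. Its female-to-male log2 ratio was 0.06. All ratios are of mean + 1 and are centred on the median of the 16283 genes with a mean of at least 10 in both tables, because the authors normalised each sex separately. Keap1 (ENSMUSG00000003308, chromosome 9, 21141026 to 21150679, minus strand), the sensor that targets NRF2 for degradation, had a mean of 1386 in males and 1338 in females and a log2 ratio of -0.10. Of all genes compared, 16.6% had a smaller ratio in either direction than Nfe2l2 and 28.0% a smaller one than Keap1. Per kb of annotated exon the Nfe2l2 level was 1.80 times that of Keap1 in males and 2.01 times in females. With the canonical transcript as the length these were 1.54 and 1.72 times, so the transcript of the factor exceeded that of its inhibitor in both sexes on both scales.

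The first step of glutathione synthesis, the joining of glutamate and cysteine, is carried out by glutamate-cysteine ligase. Its catalytic subunit is encoded by Gclc and its modifier subunit by Gclm. Gclc (ENSMUSG00000032350, chromosome 9, 77661797 to 77701770, plus strand) had a mean of 9811 in males and 6799 in females. It ranked 384 by mean in the male table and 592 in the female table. Its log2 ratio was -0.58, that is 1.49-fold lower in females, and 88.7% of genes had a smaller ratio in either direction. Gclm (ENSMUSG00000028124, chromosome 3, 122039126 to 122065061, plus strand), whose promoter core is shown above, had a mean of 7192 in males and 6133 in females and a log2 ratio of -0.28. With no spread available, it cannot be said whether the ratios of the 2 subunits differ. The level of Gclm per kb of exon was 0.577 times that of Gclc in males and 0.710 times in females. Which subunit was higher depended on the length used, since with coding length alone Gclm (8749 per kb) exceeded Gclc (4831 per kb) in males.

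Slc7a11 (ENSMUSG00000027737, chromosome 3, 49846975 to 50398070, minus strand) encodes the transport subunit of the cystine-glutamate exchanger, which supplies cysteine for glutathione in many cell types. Its male mean was 5.08 normalised counts, or 0.327 per kb of exon, and it ranked 18446 in the male table. Slc3a2, the partner chain of this and other amino acid transporters, had a mean of 869 in males and 954 in females. The female table lists no mean under 6.61, but 4 genes off the Y chromosome with a male mean of at least 100 also had no female row. The missing row therefore gives no level for Slc7a11 in females.

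Gsr (ENSMUSG00000031584, chromosome 8, 34142551 to 34188192, plus strand), the reductase that returns oxidised glutathione to its reduced form with NADPH, had a mean of 2805 in males and 2104 in females. Its log2 ratio was -0.46, or 1.38-fold lower in females, and 82.5% of genes had a smaller ratio in either direction. An annotated small nucleolar RNA on the same strand, Gm24727, shares 144 bases of exon with Gsr, so reads there may have been left uncounted. Gclm likewise shares 492 bases with a pseudogene, Gm6061, on its strand.

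Txnrd1 and Srxn1 serve the thioredoxin branch. Txnrd1 (ENSMUSG00000020250, chromosome 10, 82669785 to 82733546, plus strand), the cytosolic thioredoxin reductase and a selenoprotein, had a mean of 4912 in males and 3942 in females and a log2 ratio of -0.37. Srxn1 (ENSMUSG00000032802, chromosome 2, 151947436 to 151957687, plus strand), the sulfiredoxin that repairs over-oxidised peroxiredoxins, had a mean of 869 in males and 827 in females and a log2 ratio of -0.12. Both promoters hold a core match near the canonical start site. Srxn1 was close to the median of all genes between the sexes, with 33.3% of genes at a smaller ratio in either direction, while for Txnrd1 this share was 74.2%. Per kb of exon Txnrd1 stood 7.49 times above Srxn1 in males and 6.32 times above it in females. With the canonical transcript as the length these were 12.2 and 10.3 times. The gap was smaller with coding length, at 2671 against 1665 per kb in males and 2144 against 1584 in females.

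Nqo1 and Hmox1, often used as readouts of NRF2 activity, stood at opposite ends of the ratios. Nqo1 (ENSMUSG00000003849, chromosome 8, 108113835 to 108129934, minus strand) encodes a quinone reductase. It had a mean of 200.1 in males and 299.7 in females, with a log2 ratio of 0.53 or 1.44-fold higher in females. Apart from Slc7a11, it had the lowest mean of the 10 genes in both sexes. Of all genes compared, 86.4% had a smaller ratio in either direction. Its paralog Nqo2 was far more abundant, with 603 per kb in males and 778 per kb in females against 72.8 and 109 per kb for Nqo1.

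Hmox1 (ENSMUSG00000005413, chromosome 8, 75820241 to 75827217, plus strand) encodes the inducible heme oxygenase, which is also prominent in macrophages that clear red cells. Its mean was 756 in males and 483 in females. The log2 ratio was -0.70, or 1.62-fold lower in females, and 92.3% of genes had a smaller ratio in either direction. It was the only one of the 9 genes past 1.5-fold with the ratios as defined above, a threshold that 6.88% of all genes passed towards females and 4.24% towards males. Gclc and Nqo1 lay close to that threshold. Gclc was past it, at -0.60, with no filter on the mean, and Nqo1, at 0.61, with scaling to the summed means. The 8 Kupffer cell and leukocyte markers were all listed in both tables, their means summed to 8476 in males and 8828 in females, and their log2 ratios ran from -0.65 for Marco to 0.32 for Vsig4. Of the 3 red cell markers, Alas2, an erythroid heme synthesis enzyme, had a mean of 2685 in males and 569 in females. Hbb-bs had 2604 and 3564, and Hba-a1 had 776 and 975. The part of these cells in the Hmox1 values was not tested. In whole liver, fewer cells of a type and less RNA per cell cannot be told apart.

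The order of the levels per kb of exon was the same for the first 4 genes in both sexes, Gclc, Gclm, Txnrd1 and Nfe2l2. In males Gclc had 1566 per kb, Gclm 904, Txnrd1 693 and Nfe2l2 438, and in females 1085, 771, 556 and 473. Hmox1 (430 per kb), Gsr (404 per kb) and Keap1 (244 per kb) followed in males, and Gsr (303 per kb), Hmox1 (275 per kb) and Keap1 (235 per kb) in females. Srxn1 and Nqo1 were lower, at 92.6 and 72.8 per kb in males and 88.1 and 109 per kb in females. With no spread available, it cannot be said which neighbours in this order differ. Gclc was first with each length except the coding length, and Slc7a11 was last in males with every length.

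**Figure D3:**
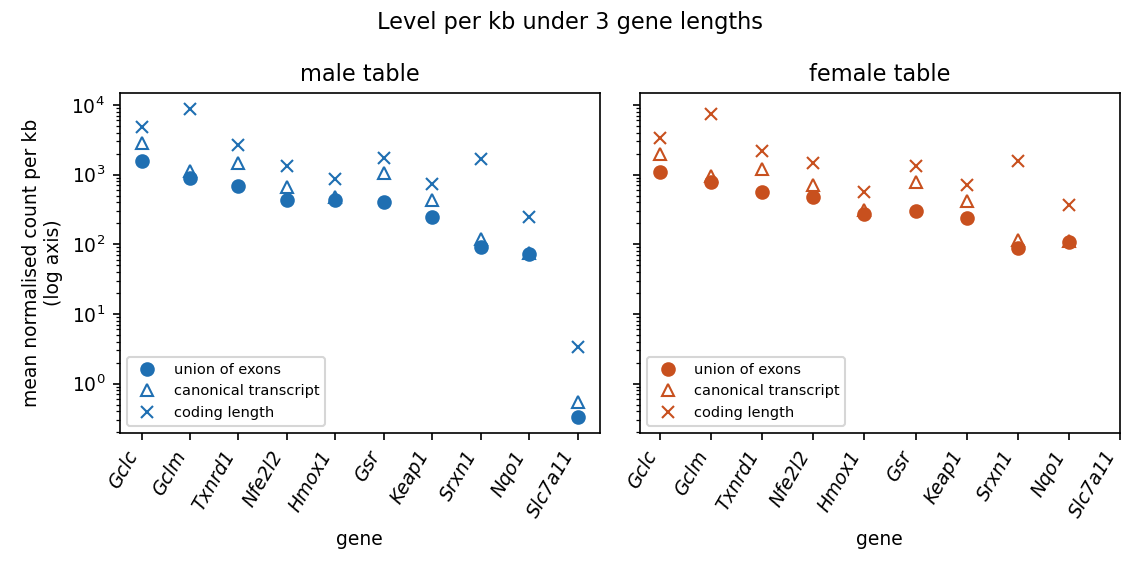
Mean normalised count per kb on a log axis for the 10 genes in males (left) and the 9 listed in females (right), with filled circles for the union of annotated exons, open triangles for the canonical transcript and crosses for the coding length. Coding length raises Srxn1, Slc7a11 and Gclm by larger factors than the other genes, and Nqo1 is the lowest of the genes listed in both sexes on it.

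Across the sexes, 7 of the 9 genes had a ratio below the median of all genes and 2, Nfe2l2 and Nqo1, above it. The median log2 ratio of the 9 was -0.28, against 0 for all genes by construction. The 6 hepatocyte markers had a median of -0.29, with 2 above 0 and 4 below and a range from -0.72 for Tat to 0.38 for Alb. Their summed means were 2.29e+06 in males and 2.83e+06 in females, most of it Alb. All 4 stellate cell markers (median 0.37, summed means 11040 and 14525) and all 4 sinusoidal endothelial markers (median 0.16, summed means 10535 and 12221) had ratios above 0. The 4 cholangiocyte markers had a median of 0.51, with 3 above 0 and 1 below, and summed means of 326 and 337. The part of these cells in the ratios of the 9 genes was not tested. None of the 9 was past 2-fold, a threshold that 1.86% of all genes passed towards females and 1.46% towards males. A difference in the scale of a table moves all 9 ratios together, and the mix of WT and Midn-T samples in each mean enters every one of them.

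**Figure D4:**
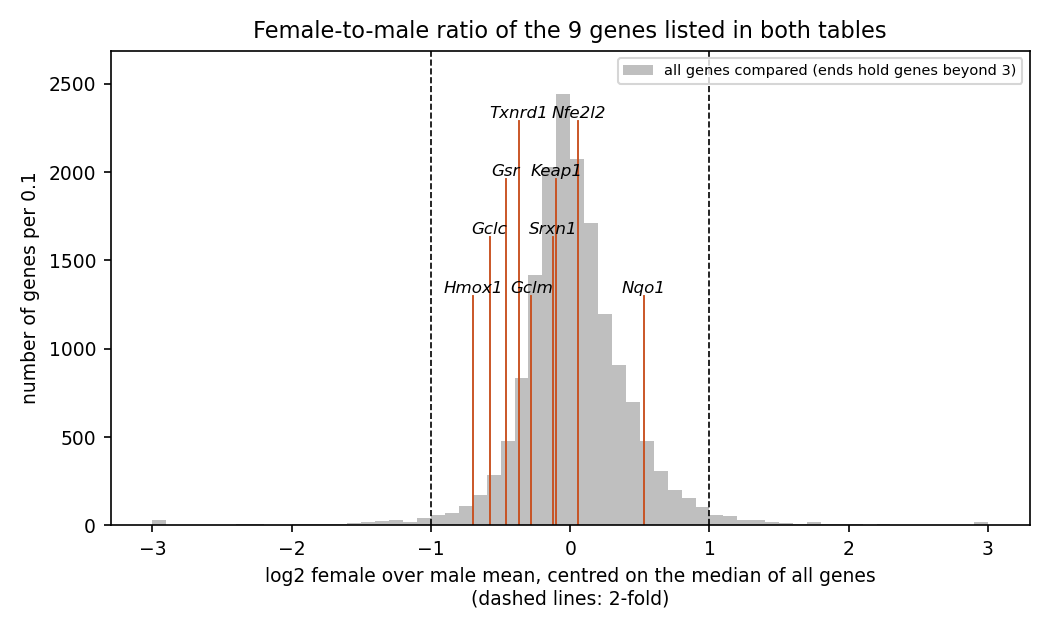
Number of genes in steps of 0.1 of the centred log2 female-to-male ratio, with orange lines at the 9 genes and dashed lines at 2-fold. All 9 lie between the dashed lines, from Hmox1 at -0.70 to Nqo1 at 0.53.

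Around the 10 genes, the partners and regulators of NRF2 included 10 genes, all compared. None was past 2-fold, and their median log2 ratio was -0.05. For this list and those below, the share of all genes past 2-fold was 1.86% towards females and 1.46% towards males. Sqstm1, the autophagy adaptor that binds KEAP1, had a mean of 8045 in males and 8467 in females, and Nfe2l1, a related factor, 3886 and 4315. Bach1, which represses Hmox1 at the same elements, had the lowest ratio of this list at -0.61, with a mean of 3241 in males and 2205 in females. The ratio of Hmox1 was -0.70, and any link between the 2 genes in these samples was not tested.

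Among the 9 genes of glutathione synthesis and use that were compared, none was past 2-fold and the median was -0.07. Gpx1, the cytosolic glutathione peroxidase, had by far the highest mean of this list, 28514 in males and 28082 in females. Oplah, a 5-oxoprolinase, had 3537 and 3053, Gpx4, the lipid hydroperoxide peroxidase, 2692 and 2130, and Gss, the second enzyme of glutathione synthesis, 1989 and 1511. The Gss log2 ratio was -0.45, the lowest of the list. The highest was that of Ggct, a gamma-glutamylcyclotransferase, at 0.79 with means of 127 and 228, and Chac1, which breaks down glutathione, had 0.48. Of the 9 genes, 4 lay above 0 and 5 below.

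In the thioredoxin and peroxiredoxin list, 1 of 11 genes was past 2-fold towards females, against 1.86% of all genes, and the median was 0.02. That gene was Txnip, an inhibitor of thioredoxin that responds to glucose, with a mean of 4656 in males and 10814 in females and a log2 ratio of 1.17. Prdx1 (17313 and 17063), Prdx6 (12639 and 13346) and Txn1 (3791 and 3642) differed little. The 6 genes of NADPH supply had a median of 0.05 and none was past 2-fold, with Idh1 (13376 and 13544) and Me1 (5516 and 6228) at the highest means.

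Of the 5 other genes of heme and iron handling, none was past 2-fold and the median was -0.09. The ferritin chains Ftl1 (33807 in males and 25058 in females) and Fth1 (20186 and 19720) were the most abundant, and Blvrb, a biliverdin reductase, had 1687 and 1228. Blvrb and Ftl1 had log2 ratios of -0.51 and -0.48. Hmox2, the constitutive heme oxygenase, had -0.09, and Blvra, the other biliverdin reductase, 0.07, the only one of the 5 above 0.

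Among 8 compared genes of other conjugation, reduction and export, 1 was past 2-fold towards males, against 1.46% of all genes. The median was 0.05. Ugdh, which makes UDP-glucuronic acid, had a mean of 6500 in males and 3319 in females and a log2 ratio of -1.02. Ephx1, the microsomal epoxide hydrolase, had 10659 and 6500 with a ratio of -0.76. The exporter genes Abcc2 (47502 and 38399) and Abcc3 (12228 and 13164) had the highest means. Ggt1 of the glutathione list and Aldh3a1 of this list had male means of 2.26 and 0.282 and no female row.

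**Figure D5:**
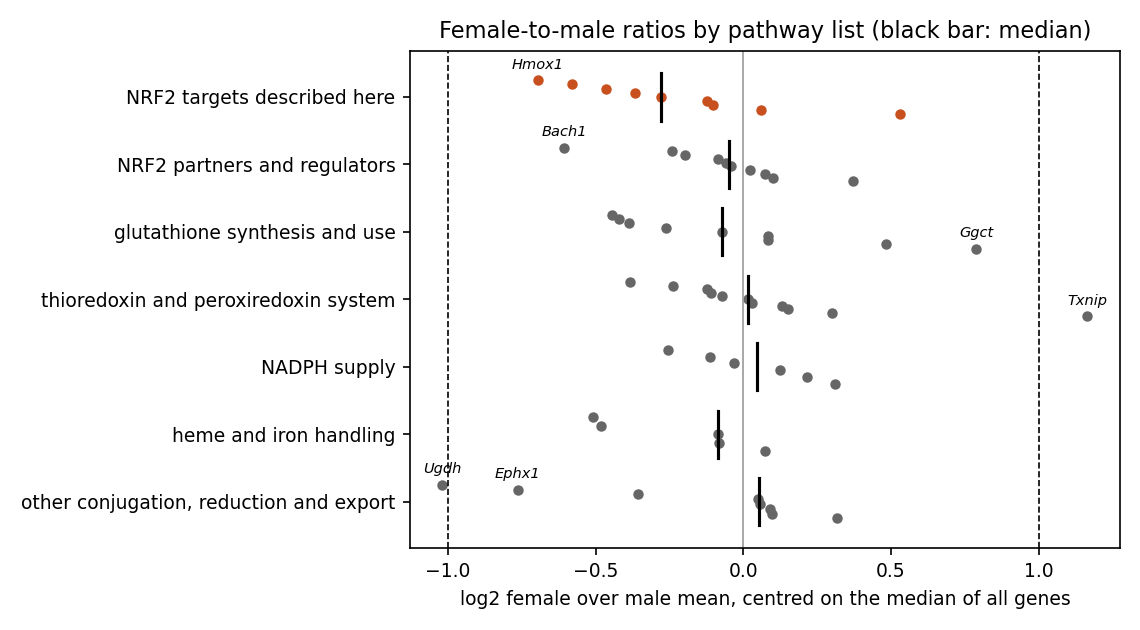
Centred log2 female-to-male ratio of each compared gene, by list, with a black bar at the median of each list and dashed lines at 2-fold. The orange points are the 9 NRF2 genes, and only Txnip and Ugdh lie past 2-fold.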

How the data were processed

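RNA-seq of liver from 12 mice was used. Per the paper's methods, the authors used STAR for alignment on GRCm39 with the Ensembl 110 annotation, and HTSeq, set to the reverse strand, for gene counts from uniquely mapping reads. The authors ran DESeq2 on one sex at a time. The sex of each table is that in its deposited name, and was checked with Y-linked genes and Xist. The signal used here is the deposited mean, over 6 samples, of counts the authors divided by size factors. The other deposited columns hold the authors' fold changes with standard errors, statistics and p-values, and were not used. The ATAC-seq peak lists hold positions chosen by the authors' comparison and were not used.

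With Python 3.11.15, numpy 2.4.6, pandas 2.3.3 and matplotlib 3.10.9, tables were joined by Ensembl identifier and lengths, start sites and promoters taken from GENCODE M39 on GRCm39, which held 56323 of the listed identifiers. Log2 ratios are of mean + 1, centred on the median of genes with a mean of at least 10 in both tables. Ratio and motif scripts were tested on simulated data. All 10 members are named, and from each list at most the 4 genes of largest mean and any gene past 2-fold, while Gss, Bach1, Blvrb, Hmox2, Ephx1, Slc3a2, Nqo2, Ggct, Chac1, Blvra, Ggt1, Aldh3a1 and the markers Marco, Vsig4, Tat and Alb were named after their values were seen. Members and lists were chosen with earlier results of these data known.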

Additional observations from a re-analysis of the deposited data

How the results depend on the processing

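With no centring, scaling to summed means without the 10 largest genes, a pseudocount of 0 or 5, no filter on the mean, or a mean of at least 100, the ratios of all 9 members moved by less than 0.1 and kept their sign, and their median ran from -0.30 to -0.20. Counts over all genes moved more, over sets of unlike size, 18149 genes with no filter against 16283 in the main setting. Past 2-fold towards females were 582 genes with no filter and 115 with a mean of at least 100, against 303. Towards males the counts were 272 and 105, against 237. With no filter the female means still had a floor of 6.61, which the male means lacked. At 1.5-fold there were 1120 and 690 genes and 1 member. Promoters with the core numbered 3 of 10, against 1 with the core followed by A, 6 with the shorter TGANNNNGC, 6 with 1000 bases upstream, and 0 with TGACTCAGC in either window. Over all promoters these shares were 12.5%, 2.77%, 40.4%, 30.4%, and 0.4% and 1.4%. The longer window, TGACTCAGC and the canonical length were chosen after seeing the data. Levels per kb moved by over 1.5 times for 19 of 19 values with coding length, 11 with the canonical transcript and 5 with the longest transcript. Each table gives 1 mean over 6 samples, so no replicate could be left out. No paired analysis was possible because the tables hold no value per sample. Depth was unknown, and no interval is given.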
